A study of Mus musculus with 6 samples.

Results

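Free DNA ends were compared between 2 BLISS libraries labelled Step2 and 2 labelled Con, which are 4 of the 6 libraries of the series. The libraries were chosen by title, and the other 2, labelled Step1, entered the fits only to share the estimate of the spread. BLISS (breaks labelling in situ and sequencing) repairs and tails the ends of double-strand breaks in fixed nuclei, joins an adaptor to them, copies the joined DNA by in vitro transcription and sequences it, so that the first base of a read marks a DNA end. Each read was counted at that 5′ end on the mouse build mm10, on chromosomes 1 to 19 and X. Ends were counted with all reads, and again with 1 read kept per position and strand, because many reads can pile up on a single position. Values are from all reads where the counting is not named.

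All 6 libraries are described in the same way: neurons sorted from the forebrain of mice of genotype CK-p25, with 2 weeks of induction by taking doxycycline out of the diet. In CK-p25 mice a CaMKIIα-driven, doxycycline-repressed system makes p25 in forebrain excitatory neurons. p25 is a fragment of p35 that keeps the kinase Cdk5 active, and the mice are used as a model of neurodegeneration in which DNA damage appears early. The Con libraries thus carry the same genotype and treatment label as the Step2 libraries. The labels do not say what Con, Step1 and Step2 stand for, how neurons of each group were sorted, how old the mice were, or whether replicates are separate animals. Every p-value thus rests on the spread between libraries alone, which may be a technical one.

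Neurons carry breaks at several kinds of place. Active promoters accumulate ends where topoisomerase acts during transcription, and very long genes for synaptic adhesion and neuronal wiring are known as recurrent break clusters in neural progenitors, where transcription and replication of such long units can collide. The counts here are shares of a library, so they show the places of ends rather than the number of breaks in a cell. Gene bodies were also not separable by cell type, since reads come from genomic DNA that every cell has.

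The Con libraries held 2300995 and 2273508 reads and the Step2 libraries 1526487 and 1480461, so counts in Step2 are less precise. Values per library are given as CPM, counts per 1000000 reads outside 26 densely piled windows of 10 kb. The mitochondrial share was 0.135% and 0.256% in Con and 0.0202% and 0.0285% in Step2. Median read length was 49 bases in Con and 47 in Step2, and both Step2 libraries held 2 sequencing runs in about the proportions of the Con libraries. Outside the piled windows, reads per position were 1.24 and 1.37 in Con and 1.19 and 1.22 in Step2. The part of these differences in the results was not tested.

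Long genes, several of them neuronal, held fewer ends in Step2 than in Con. With 1 read per position, 12 protein-coding genes were called lower and 4 higher of 12715 tested, which is 0.126% of those tested. Called means an adjusted p below 0.05 from limma, with Benjamini-Hochberg adjustment over all tested genes. All 12 lower genes were at least 287 kb long. With all reads, 13 of 13811 protein-coding genes (0.0941%) were called, 11 lower and 2 higher, and 5 genes were called both ways. At an unadjusted limma p below 0.05 there were 1073 of 13811 genes with all reads and 1013 of 12715 with 1 read per position. A share of 0.05 would fall there if no gene differed.

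Nrg3, on chromosome 14 from 38368952 to 39473088, encodes neuregulin 3, a ligand of the receptor ErbB4. Counted once per position it held 509 and 526 CPM in Con and 437 and 407 in Step2 (log2 fold change −0.29 ± 0.05 SE, limma adjusted p = 0.000262). With all reads it held 488 and 547 CPM against 426 and 398 (−0.33 ± 0.06, adjusted p = 0.0133). Both Step2 libraries lay below both Con libraries in each counting.

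Prkce, on chromosome 17 from 86167785 to 86657919, encodes protein kinase C epsilon, a lipid-activated kinase. It held 219 and 222 CPM in Con and 150 and 173 in Step2 with 1 read per position (−0.45 ± 0.09, limma adjusted p = 0.00172). With all reads the log2 fold change was −0.50 (adjusted p = 0.0250). The groups did not overlap, and among the protein-coding genes called in both countings this fall was the largest.

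Faf1, on chromosome 4 from 109676588 to 109963960, encodes a Fas-associated factor that binds ubiquitin. It held 143 and 138 CPM in Con and 86.7 and 110 in Step2 with 1 read per position (−0.53 ± 0.12, limma adjusted p = 0.00926). With all reads one Step2 library held 121 CPM, close to the 132 of the lower Con library, and the adjusted p was 0.354. Faf1 is the shortest of the 12.

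The others are adhesion, channel-linked and receptor genes. Cntn5 encodes a contactin of the axon surface, and held 538 and 532 CPM in Con against 455 and 441 in Step2 with 1 read per position (−0.26 ± 0.05, limma adjusted p = 0.00136; all reads −0.29, adjusted p = 0.0102). Cadm2, a synaptic cell adhesion molecule, held 448 and 459 CPM against 385 and 373 (−0.25 ± 0.06, adjusted p = 0.00926; all reads −0.30, adjusted p = 0.0250). Adgrb3, an adhesion receptor that binds C1q-like proteins at synapses, held 339 and 379 CPM against 267 and 301 (−0.33, adjusted p = 0.00172; all reads −0.32, adjusted p = 0.0945, not called). In each of these genes the highest Step2 library lay below the lowest Con library.

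Kcnip4, whose product binds potassium channels, held 527 and 515 CPM in Con and 437 and 428 in Step2 with 1 read per position (−0.27, limma adjusted p = 0.00105). Csmd1, a very large complement-regulating membrane protein, held 726 and 717 CPM against 630 and 622 (−0.21, adjusted p = 0.00106), and its relative Csmd3 528 and 533 against 463 and 438 (−0.23, adjusted p = 0.00582). Fam155a, an auxiliary subunit of the NALCN sodium leak channel, held 246 and 260 CPM against 182 and 217 (−0.35, adjusted p = 0.0294). None of these genes was called with all reads, where their adjusted p ran from 0.0577 for Csmd1 to 0.0945 for Kcnip4 and Fam155a, with the same direction.

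The smallest called falls were in the longest genes. Lrp1b, a giant lipoprotein receptor of the LDL receptor family, held 869 and 853 CPM in Con and 759 and 802 in Step2 with 1 read per position (−0.14 ± 0.03, limma adjusted p = 0.0200). Dmd, which encodes dystrophin and spans chromosome X from 82948870 to 85206141, held 947 and 999 CPM against 894 and 880 (−0.13 ± 0.03, adjusted p = 0.0231). Neither was called with all reads, where the adjusted p was 0.314 for Lrp1b and 0.0704 for Dmd. Their many reads gave these genes small standard errors, so that a change of this size was callable in them and not in short genes.

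**Figure D1:**
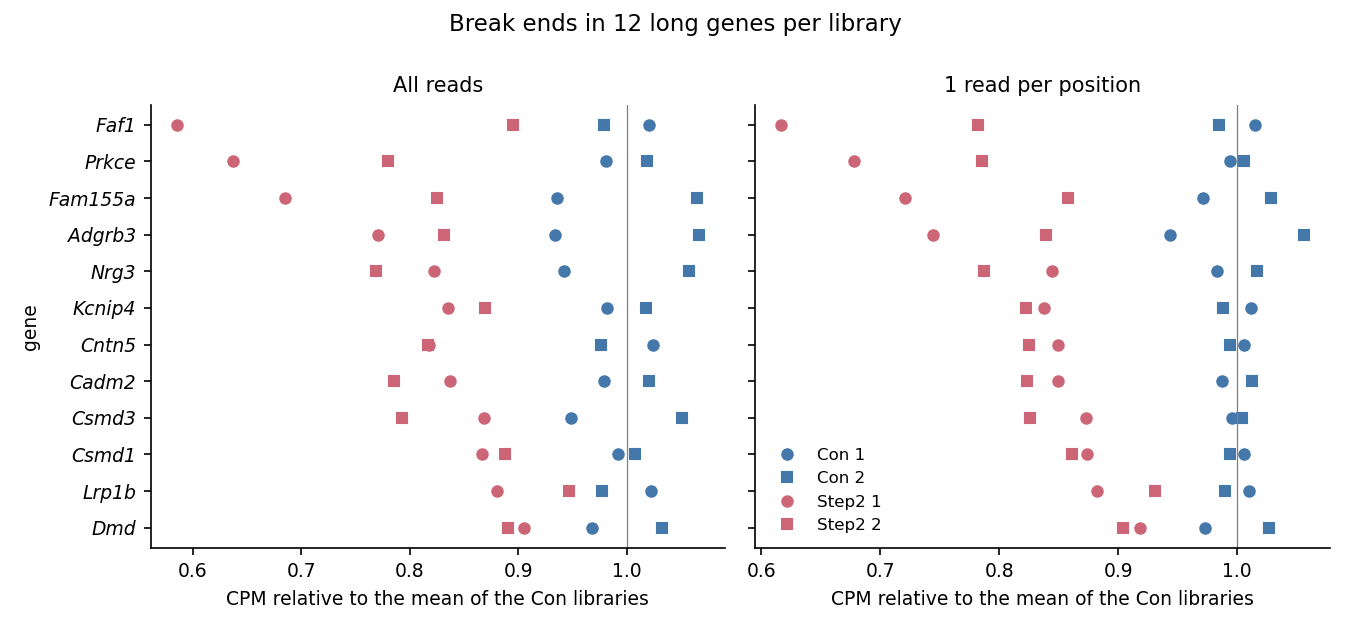
CPM of each Con (blue) and Step2 (red) library divided by the mean of the Con libraries, for the 12 long genes called lower with 1 read per position, with all reads on the left and 1 read per position on the right. Each point is a library (circle, replicate 1; square, replicate 2), and in both panels both Step2 points of every gene lie below both Con points, as for Prkce (219 and 222 CPM against 150 and 173 with 1 read per position).

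The ends in these genes were spread along the gene. In the 12 genes called with 1 read per position, the fullest position held from 0.200% to 1.77% of a gene's reads, and between 45.2% and 54.8% of reads lay on the strand opposite to the gene. The 567 protein-coding genes over 300 kb were cut into 10 equal parts from start to end. In each of the 10 the Step2 libraries lay below the Con libraries, with log2 ratios from −0.11 to −0.06 with all reads and from −0.10 to −0.07 with 1 read per position.

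The fall over genes of this size was modest and did not depend on a filter on low counts. Over all 567 genes above 300 kb, whether or not they were tested, ends numbered 0.409 and 0.416 in Con and 0.386 and 0.389 in Step2, in CPM per kb (log2 ratio −0.09). Over the 1922 genes of 100 to 300 kb the values were 0.396 and 0.399 against 0.384 and 0.383. In genes of 30 to 100 kb the groups were apart by less, with 0.388 and 0.393 against 0.386 and 0.380. In genes up to 10 kb the libraries overlapped, with 0.379 and 0.415 against 0.388 and 0.382, and so did those of 10 to 30 kb.

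Genes above 300 kb thus took 13.3% and 13.5% of Con ends and 12.5% and 12.6% of Step2 ends, with the same values when libraries were thinned to equal depth; they cover 12.7% of the genome. Protein-coding genes as a whole took 41.0% and 41.7% of ends in Con and 39.9% and 39.8% in Step2, against 40.4% of the genome. For each of these shares the exact two-sided permutation p was 0.33. With 2 libraries against 2 there are 6 assignments and no smaller p is possible, so this test cannot pass 0.05.

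Above 10 kb the share of tested genes that were lower rose with length. Counted once per position, it was 53.1% of 4898 genes of 10 to 30 kb, 62.3% of 1916 genes of 100 to 300 kb, 75.2% of 508 genes of 300 to 1000 kb and 86.4% of 59 genes above 1000 kb, against 56.0% of all tested genes. The median log2 fold change was −0.09 both in genes of 300 to 1000 kb and in those above 1000 kb, so the fall itself did not grow between these classes. Of the 59 longest genes, 7 were called. Genes up to 10 kb were lower in 70.0% of 247, but few short genes reach the minimum count, and one that passed only through its Con libraries had to be lower.

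Scaling sets how many of these genes pass. Median-of-ratios scaling, which centres the typical gene at 0, moved the median of all genes from −0.05 to 0.01 with 1 read per position. With it, 2 of the 12 long genes, Nrg3 and Prkce, were still called. Then 61.4% of genes of 300 to 1000 kb and 66.1% of genes above 1000 kb were lower. With all reads under that scaling none of these 12 genes was called. The lower share was then 60.2% in genes of 300 to 1000 kb and 59.3% above 1000 kb, with no rise between them. Leaving out 1 library also moved the count of calls with 1 read per position. It was 26 when Con replicate 1 was dropped, 2 when Step2 replicate 1 was and 0 when Step2 replicate 2 was. Nrg3 was the gene among the 12 that kept its call in each of the other 3 fits that left out a Con or Step2 library. With all reads 106 genes were called when Con replicate 1 was left out, 7 when the other Con library was, and 1 and 2 when Step2 replicates 1 and 2 were.

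**Figure D2:**
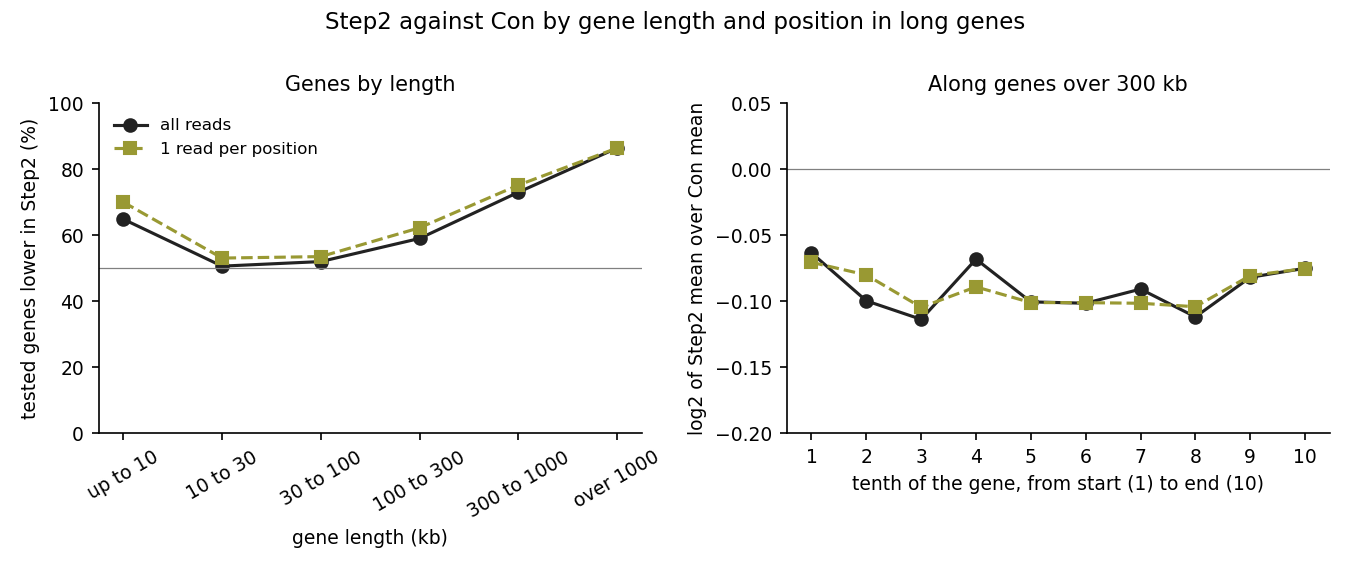
Left, the percentage of tested protein-coding genes lower in Step2 by gene length, with a line at equal shares; right, the log2 ratio of the Step2 mean to the Con mean in each of 10 equal parts of genes over 300 kb; black is all reads and olive 1 read per position. The percentage reaches 86.4% of genes above 1000 kb with 1 read per position, and every part of the long genes lies below 0, between −0.11 and −0.06 with all reads.

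Long genes known as recurrent break clusters in neural progenitors were counted as a list of 40, all of them tested and between 699 and 2271 kb long. With all reads 38 of the 40 were lower, with a median log2 fold change of −0.14, beside 54.0% lower and −0.04 over all tested genes. Of all tested genes of 300 to 1000 kb 73.0% were lower (median −0.09), and of those above 1000 kb 86.4% (median −0.08). Whether the list differs from other genes of its length was not tested. Both Step2 libraries lay below both Con libraries in CPM in 26 of the 40, the groups overlapped in 13, and Step2 lay above in 1. No such count over all tested genes or over genes of this length is given beside it, so it only describes the list. Counted once per position, 37 were lower, with a median of −0.13. Called were Cadm2, Nrg3 and Cntn5 with all reads, and these with Csmd1, Csmd3, Lrp1b, Adgrb3 and Dmd with 1 read per position. Over all tested genes 0.0941% and 0.126% were called in the 2 countings. Of all tested genes of 300 to 1000 kb 3 and 4 were called lower, and of those above 1000 kb 2 and 7. With median-of-ratios scaling 31 and 30 of the 40 were lower in the 2 countings.

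The members with the most reads per kb did not all pass the test. Rbfox1, a neuronal splicing regulator, held 1502 and 1696 reads in Con and 900 and 984 in Step2 (log2 fold change −0.15, limma adjusted p = 0.452). Pcdh9, a protocadherin, held 896 and 1006 reads against 508 and 497 (−0.31, adjusted p = 0.0534). Cdh13, a cadherin without a membrane-spanning part, was the highest member at 0.13, and Sdk1, an adhesion molecule of synaptic layers, stood at 0.03, both with all reads.

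Ends in long genes were not confined to a strand. In genes above 300 kb the share of ends on the strand opposite to the gene was 50.3% and 51.3% in Con and 49.9% and 50.1% in Step2. Ends on the sense strand fell from 6.35% and 6.32% of all ends to 6.04% and 6.07%, and those on the opposite strand from 6.43% and 6.65% to 6.01% and 6.08%. In introns of all genes the opposite-strand share was 49.5% and 49.99% in Con and 49.0% and 49.0% in Step2. The exact permutation p was 0.33 for each.

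Genes of the synapse were mostly lower in Step2, though few of them passed the test. Of 29 tested excitatory postsynaptic genes 23 were lower with all reads (median −0.18), and of 28 tested with 1 read per position 25 were lower (median −0.18). Among genes of presynaptic release 23 of 27 and then 25 of 27 were lower, with medians of −0.19 and −0.22. Of 21 inhibitory synapse genes 18 were lower in both countings. These compare with 54.0% and 56.0% of all tested genes, and many synaptic genes are long.

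In the postsynaptic list the gene called was Grin1, the obligatory subunit of NMDA receptors, described with its sequence below. Lrrtm2, a synaptic organiser, held 13 and 2 reads against 10 and 1 (0.08), and Arc, an activity-induced gene, 5 and 6 against 3 and 4, too few to test. Such low counts could not be separated from the spread between libraries.

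In the presynaptic list no gene was called, with 4 members lower at an unadjusted limma p below 0.05 with all reads and 9 with 1 read per position. Of all tested genes on chromosomes 1 to 19, 4.62% and 4.90% were lower at that p in the same countings. This share rose with length, to 6.84% and 8.66% at 100 to 300 kb and 19.9% and 23.2% at 300 to 1000 kb. Whether the list differs from other genes of its length was not tested. Syp, the vesicle protein synaptophysin, held 20 and 40 reads in Con and 7 and 16 in Step2 (−0.77, limma adjusted p = 0.739). Cplx1, the fusion clamp complexin 1, held 46 and 37 against 23 and 14 (−0.57; −0.91 with 1 read per position, adjusted p = 0.367). Syt4, a synaptotagmin, held 16 and 16 against 7 and 12, and Rab3a, a vesicle GTPase, 4 and 6 against 4 and 1. Syp and Syt4 overlapped between the groups in CPM and Cplx1 did not.

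In the inhibitory list Gabbr1, a subunit of the metabotropic GABA receptor, held 56 and 58 reads in Con and 24 and 11 in Step2 (−1.16 ± 0.36, limma adjusted p = 0.367). Glra2, a glycine receptor subunit, held 200 and 224 against 144 and 113 (−0.12). The groups did not overlap in CPM in Gabbr1 and overlapped in Glra2.

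Genes of the axon initial segment and node, where action potentials start, were lower in 15 of 20 with all reads and 15 of 18 with 1 read per position, with medians of −0.13 and −0.12. Sptbn4, the βIV spectrin of that site, was called with all reads. L1cam, an axonal adhesion molecule, held 47 and 43 reads against 38 and 34 and was higher relative to library size (0.29, limma adjusted p = 0.840). Kcna1, a potassium channel gene, held 12 and 11 reads in Con and 0 and 12 in Step2, and Trim46, which marks the initial segment, 9 and 9 against 13 and 8.

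In the list of protein kinase C and the Cdk5 pathway 13 of 19 genes were lower in both countings, with Prkce called in both. App, the amyloid precursor, held 210 and 252 reads in Con and 129 and 131 in Step2 (−0.21), Gsk3b, a tau kinase, 145 and 170 against 94 and 95 (−0.12), and Mef2c, a neuronal transcription factor, 150 and 206 against 124 and 90 (−0.12). Cdk5r1, which encodes p35, held 3 and 5 reads in Con and 5 and 1 in Step2 and was not tested. Camk2a, whose promoter drives the system, held 65 and 66 reads against 32 and 28 (−0.51, adjusted p = 0.682) and 46 and 49 against 30 and 27 with 1 read per position (−0.23).

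Most genes called with all reads had a large part of their reads at 1 position. Of the 11 called lower, 7 had over 20% of their reads at a single position, and 4, Nrg3, Prkce, Cntn5 and Cadm2, had at most 0.914% there. The reference bases around the fullest positions are given here because those calls draw on them. Each runs 5′ to 3′ on the strand of the read, from the mm10 (GRCm38) RefSeq genome, with 25 bases before the end and 35 from it on; the capitals mark the 5 bases just before the end.
Grin1, chr2:25310600-25310659, plus strand: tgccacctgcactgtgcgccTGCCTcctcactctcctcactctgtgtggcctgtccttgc
Sptbn4, chr7:27394189-27394248, plus strand: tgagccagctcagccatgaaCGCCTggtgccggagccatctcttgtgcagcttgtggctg
Jarid2, chr13:44869942-44870001, plus strand: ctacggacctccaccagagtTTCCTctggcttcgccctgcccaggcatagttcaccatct
Filip1l and Cmss1, chr16:57391586-57391645, plus strand: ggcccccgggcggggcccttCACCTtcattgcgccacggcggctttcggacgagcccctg
Cma2, chr14:55955569-55955628, plus strand: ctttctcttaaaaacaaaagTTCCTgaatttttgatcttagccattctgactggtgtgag
Cdk8, chr5:146261304-146261363, minus strand: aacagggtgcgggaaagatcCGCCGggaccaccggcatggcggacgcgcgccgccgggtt
Chromosome 2 window, chr2:90395108-90395167, plus strand: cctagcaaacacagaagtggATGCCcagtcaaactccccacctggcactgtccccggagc

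Grin1 lies on chromosome 2 from 25291181 to 25319187 on the minus strand. It held 30.4 and 29.8 CPM in Con and 10.3 and 4.94 in Step2 with all reads (log2 fold change −2.01 ± 0.42, limma adjusted p = 0.0250). The position shown above, in an intron on the strand opposite to the gene, held 44.2% of its reads, with 20 and 42 reads in Con and 4 and 2 in Step2. Without that position the log2 ratio was still −1.53, and with 1 read per position the gene held 37 and 23 reads against 9 and 5 (−1.55, adjusted p = 0.204). The groups did not overlap in either counting.

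Sptbn4, on chromosome 7 from 27356383 to 27447686, held 64.0 and 83.8 CPM in Con and 41.1 and 21.2 in Step2 (−1.29 ± 0.24, limma adjusted p = 0.00827). Its fullest position, in an exon and opposite to the gene's strand, held 40 and 68 reads in Con and 0 and 1 in Step2. Without it the log2 ratio was −0.68, and with 1 read per position −0.59 (adjusted p = 0.295). Hist1h1d, a linker histone gene, held 41.3 and 66.4 CPM against 21.9 and 18.3 (−1.36, adjusted p = 0.0276), with 23 and 34 reads at 1 position in Con and 0 and 4 in Step2, and −0.24 with 1 read per position. Without that position the log2 ratio of Hist1h1d was −1.13. The calls of Grin1 and Sptbn4 ended when either Step2 library or the second Con library was dropped, with the direction kept.

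Jarid2, a cofactor of the Polycomb repressive complex, held 146 and 266 CPM in Con and 109 and 83.9 in Step2 (−1.03 ± 0.19, limma adjusted p = 0.00827). At the position shown there were 115 and 330 reads in Con and none in either Step2 library, the 30 bases that follow it match 5 places in the genome, and with 1 read per position the log2 fold change was −0.01. Filip1l and Cmss1, which overlap each other on opposite strands of chromosome 16, fell by 0.96 and 0.72 with all reads (adjusted p = 0.000447 and 0.00193). They share the position shown, with 109 and 243 reads in Con and 2 and 5 in Step2, and with 1 read per position stood at −0.39 and −0.20, neither called. Ends in their overlap cannot be assigned to either gene, since ends lie on both strands of gene bodies.

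Cma2, of the mast cell chymase family, held 188 and 252 CPM in Con and 104 and 109 in Step2 (−1.03, limma adjusted p = 0.0137). Its fullest position held 74.8% of its reads, and the 30 bases that follow that end match 17722 places in the genome. The direction turned when each position was counted once, to 0.34 with 15 and 14 reads against 13 and 13.

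Of the genes higher with all reads, Cdk8 stood out by a position that Con lacked. Cdk8 encodes the kinase of the Mediator complex and lies on chromosome 5 from 146231230 to 146302874. It held 68.1 and 89.8 CPM in Con and 175 and 279 in Step2 (1.5 ± 0.16, limma adjusted p = 7.04e-08). The position shown, in an intron and opposite to the gene's strand, held 0 and 0 reads in Con and 189 and 338 in Step2. Without it the log2 ratio was −0.86, with 1 read per position −0.18, and with reads of mapping quality of at least 30 −0.75, so that the direction turned in each. The median mapping quality of its reads was 42 in Con and 23 in Step2.

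Single positions were also gained elsewhere. On chromosome 2 at 90395133, outside any protein-coding gene, 1 and 0 reads in Con stood against 1850 and 2643 in Step2. The 30 bases that follow this end match 4 places in the genome, so the reads may come from another of them. The window of 10 kb around the position held 10 and 9 reads against 1858 and 2649, a rise of 8.40 on the log2 scale (limma adjusted p = 1.67e-19). The Step1 libraries held 98 and 142 reads there. This position was thus fullest in Step2, lower in Step1 and nearly empty in Con. Other gained positions had another order. On chromosome 13 at 97190546 there were 2 and 2 reads in Con, 379 and 484 in Step2 and 4860 and 6725 in Step1. At 5860660 on chromosome 3, Step1 held 81 and 79 reads against 35 and 60 in Step2.

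Further positions without a Con read were on chromosome 11 at 109011904, with 129 and 160 reads in Step2, on chromosome 3 at 5860660, with 35 and 60, and on chromosome X at 87238408 in an intron of Il1rapl1, a synaptic adhesion gene, with 15 and 27. On chromosome 3 at 157925099 the reverse was seen, with 49 and 198 reads in Con and 1 and 5 in Step2. Among 128048 windows of 10 kb with enough reads, 8 were called with all reads (0.00625%), 5 higher and 3 lower. With 1 read per position 2 of 58399 were called (0.00342%), and none of these was among the 8. Dropping Con replicate 1 gave 109 windows with all reads and 10 with 1 read per position. Dropping Step1 replicate 1 gave 2 with all reads, and dropping a Step2 library gave 4 or 2 with all reads and 0 with 1 read per position.

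**Figure D3:**
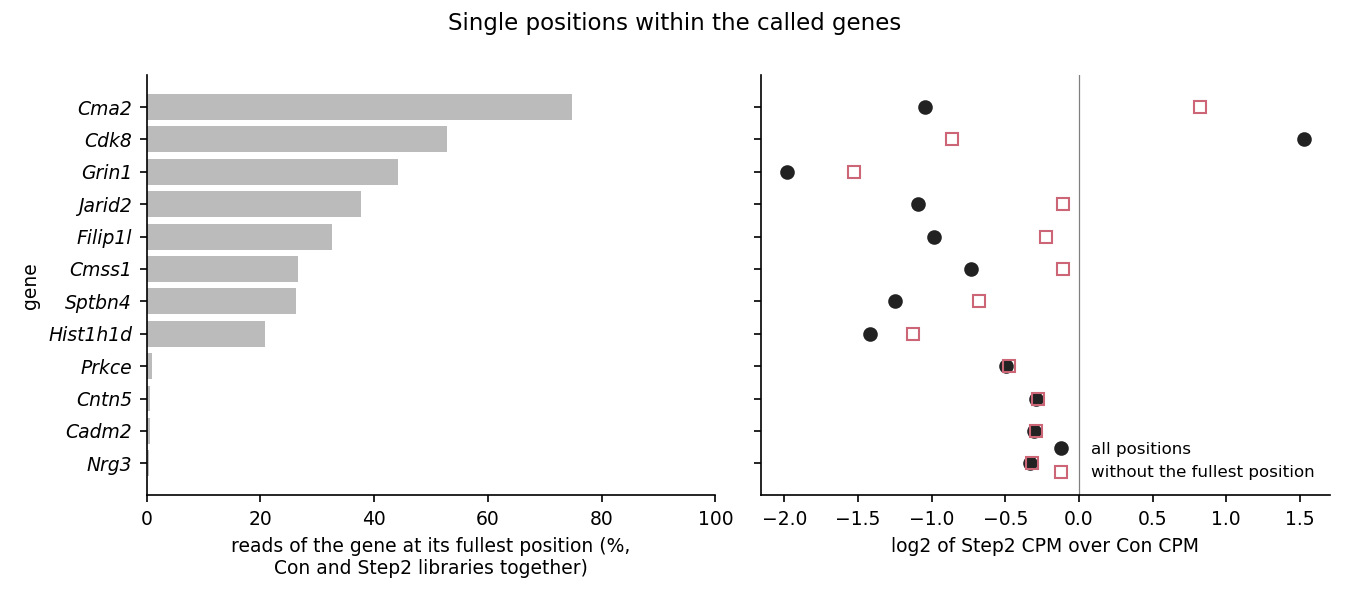
For protein-coding genes called with all reads (Gm10801, a gene model in a piled window, is left out), the percentage of reads at the fullest position (left, Con and Step2 together) and the log2 ratio of Step2 to Con CPM with all positions (black) and without the fullest one (open red squares, right). Cma2 (74.8% at that position) and Cdk8 change sign without it, while Nrg3, Prkce, Cntn5 and Cadm2 hardly move.

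The bases before these ends differed between positions lower and higher in Step2. Of the 12 distinct positions lower in Step2 whose sequence was read, 10 were preceded by CCT, and of the 8 higher in Step2 none was. Among the 8 is a position in a piled window, on chromosome 2 at 98667097, that was full in both groups (1170 CPM in Con and 1321 in Step2). The 12 and the 8 positions were chosen by their values, so this is a description. Over all ends, CCT came before 9.39% and 9.95% of Con ends and 9.32% and 8.67% of Step2 ends, against 1.82% of genome positions.

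The longer run CGCCT, which precedes the Sptbn4 position, showed a wider gap between groups. It stood before 0.412% and 0.778% of Con ends and 0.167% and 0.168% of Step2 ends, against 0.0173% of genome positions, and before 0.347% and 0.616% against 0.166% and 0.167% with 1 read per position. In introns the shares were 0.623% and 1.15% in Con and 0.185% and 0.183% in Step2. A T stood just before 44.8% and 48.4% of Con ends and 42.1% and 43.0% of Step2 ends, against 29.1% of the genome. These motifs were picked after they were seen in the data, the exact permutation p was 0.33 for each, and whether they arise in the assay or in the cells was not tested.

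The noncoding RNA genes Meg3 and Malat1, both abundant in neurons, held fewer ends in Step2 in both countings. Among 3893 noncoding RNA genes 13 were called with all reads (0.334%), 3 higher and 10 lower, and among 3368 with 1 read per position 12 were called (0.356%), 6 in each direction, with 5 genes called both ways. Of 14 tested genes in a list of abundant noncoding RNAs 13 were lower with all reads (median −0.37), and of 13 with 1 read per position 11 (median −0.16), beside 49.7% and 48.9% lower over all noncoding genes. Most members did not pass the test, and with a library left out the number lower with all reads ran from 8 to 14. The sequences at the fullest ends of 3 of them are shown in the same form as above, since their ends lay almost all on the strand opposite to the RNA.
Meg3, chr12:109559403-109559462, minus strand: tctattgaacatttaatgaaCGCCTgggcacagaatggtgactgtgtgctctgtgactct
Malat1, chr19:5800224-5800283, plus strand: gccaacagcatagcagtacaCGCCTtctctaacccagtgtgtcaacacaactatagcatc
Gas5, chr1:161035872-161035931, minus strand: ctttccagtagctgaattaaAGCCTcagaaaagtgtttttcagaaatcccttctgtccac
Gas5, chr1:161036100-161036159, minus strand: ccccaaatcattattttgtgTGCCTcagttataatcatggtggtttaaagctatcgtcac

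Meg3, an imprinted nuclear RNA on chromosome 12 from 109541001 to 109571726, held 42.3 and 77.3 CPM in Con and 22.1 and 12.02 in Step2 with 1 read per position (log2 fold change −1.75 ± 0.25, limma adjusted p = 5.11e-09). With all reads it held 59.9 and 123 against 21.9 and 12.7 (−2.33 ± 0.35, adjusted p = 6.70e-05). The fullest position held 6.87% of its reads, so the fall was spread over the gene, and 91.3% of Con reads and 82.0% of Step2 reads lay opposite to the RNA. Whichever Con or Step2 library was dropped, its log2 fold change with all reads lay between −2.85 and −1.81 and it was called. Its window of 10 kb was the 1 called lower with 1 read per position (46 and 79 reads against 13 and 10, −1.83, adjusted p = 1.36e-05).

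Malat1, a nuclear RNA of splicing speckles on chromosome 19 from 5795690 to 5802672, held 43.4 and 74.8 CPM in Con and 29.4 and 31.8 in Step2 with 1 read per position (−0.87 ± 0.20, limma adjusted p = 0.0108). With all reads it held 145 and 328 against 60.3 and 78.3 (−1.66, adjusted p = 0.000233), and 99.2% of Con reads and 94.5% of Step2 reads lay opposite to the RNA. The second Con library was the high one in Meg3 and in Malat1, and the first Con library was still above both Step2 libraries. The call of Malat1 on single positions ended when Con replicate 2 was dropped (−0.50, limma adjusted p = 0.895) or when a Step2 library was (−0.81 and −0.92).

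Gas5, which hosts small nucleolar RNAs, held 59.9 and 78.3 CPM in Con and 16.5 and 19.04 in Step2 with all reads (−1.93 ± 0.27, limma adjusted p = 1.98e-05), and 13 and 12 reads against 5 and 3 with 1 read per position (adjusted p = 0.869). Gas5 was called with all reads whichever Con or Step2 library was dropped. Its ends sat near the 3′ ends of small nucleolar RNAs. The first position shown held 52 and 72 reads in Con and 9 and 19 in Step2, and the second 65 and 68 against 7 and 7. Both lie within models of small nucleolar RNAs, Gm22489 and Gm22357, on the strand opposite to them. Snhg14, a host of small nucleolar RNAs that overlaps Ube3a on the opposite strand, was called with 1 read per position (129 and 156 CPM against 111 and 95.3, −0.45, adjusted p = 0.04999). Dropping Con replicate 1 gave 37 called noncoding genes with all reads and 4 with 1 read per position, dropping Con replicate 2 gave 1 in the latter, and dropping a Step2 library gave 3.

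The other lower noncoding genes are little studied transcripts. Gm20512, on chromosome 7 near Bcam, held 23.1 and 34.6 CPM in Con and 13.9 and 11.2 in Step2 with 1 read per position (−1.13, limma adjusted p = 0.0413), and 4932443L11Rik 40.0 and 39.0 against 17.99 and 21.5 (−0.99, adjusted p = 0.0179); both were also called with all reads. AC154806.1 was called with 1 read per position alone (−1.27), and C920021L13Rik, 5430416N02Rik and Gm45606 with all reads alone (−1.93, −1.55 and −1.93). 5430416N02Rik had 79.1% of its reads at 1 position and Gm45606 50.6%.

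Among the higher noncoding genes A730082K24Rik, on chromosome 7, was called in both countings, with 12.4 and 12.6 CPM in Con and 30.2 and 34.3 in Step2 with 1 read per position (1.35 ± 0.27, limma adjusted p = 0.000705). Gm20711 held 40.6 and 40.9 CPM against 70.3 and 59.2 (0.67, adjusted p = 0.0413), and Gm10415 15.8 and 12.6 against 27.8 and 29.2 (1.00, adjusted p = 0.0455). All 3 had their ends spread over the gene and close to equal on the strands.

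Gm42418 and CT010467.1 overlap a copy of ribosomal RNA on chromosome 17. Gm42418 rose from 202 and 360 CPM to 459 and 694 with all reads (1.06, limma adjusted p = 5.15e-06), with 390 and 668 Step2 reads and no Con read at 39848608. Counted once per position, Gm42418 stood at −0.25 and CT010467.1 at −0.29, neither called, so the direction turned. In the protein-coding fit the higher genes with 1 read per position were Gm10801, Gm10800 and Gm21738 (0.26, 0.35 and 0.19), gene models that lie in piled windows where Gm10800 held 338 and 362 CPM in Con and 440 and 452 in Step2. The other was Fyttd1, an mRNA export factor with 11 and 14 reads in Con and 27 and 22 in Step2 (1.46, adjusted p = 0.0262), which has fewer reads than the naming rule asks and was chosen after its values were seen.

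Ends were less concentrated at gene starts in Step2. In the 100 bases before protein-coding gene starts, the Con libraries had 5.11 and 8.82 times the density of places 4 to 5 kb away, and the Step2 libraries 2.90 and 3.40 times, with all reads. The values were 4.56 and 7.34 against 2.83 and 3.37 on single positions. Within 200 bases on either side the density was 2.96 and 4.79 in Con and 1.98 and 2.30 in Step2 (exact permutation p = 0.33). The Con libraries differed from each other by more than the lower one differed from Step2, and when Con replicate 2 was dropped the difference in means fell from −1.73 to −0.81.

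Further from the start the order was the other way in several stretches. Between 700 and 799 bases after the start the density was 1.17 and 1.35 in Con and 1.44 and 1.40 in Step2, and between 900 and 999 bases 1.14 and 1.28 against 1.34 and 1.37. The libraries overlapped in the bins from 400 to 699 bases and from 1000 to 1199 bases, so the order was broken in places. With 1 read per position both Step2 libraries also lay above both Con libraries in each bin from 1200 to 1599 bases after the start. The same held in each bin from 1200 to 601 bases before it, with 1.19 and 1.25 against 1.28 and 1.34 in the nearest of these. The share of all ends within 1 kb of a start was 2.36% and 3.23% in Con and 2.16% and 2.28% in Step2 with all reads (exact permutation p = 0.33), and overlapped with 1 read per position (2.30% and 3.01% against 2.18% and 2.31%, exact permutation p = 0.67).

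The 2 strands shared the top of the peak about evenly and differed on its sides. In the 100 bases before the start, ends opposite to the gene numbered 2100 and 3778 CPM in Con and 1164 and 1402 in Step2. Those on the gene's strand numbered 2078 and 3728 against 1197 and 1320. Between 200 and 101 bases before the start, ends on the strand opposite to the gene numbered 1571 and 2636 CPM in Con and 1035 and 1256 in Step2, and those on the gene's strand 1094 and 1929 against 709 and 869. Between 300 and 399 bases after the start the gene's strand was the fuller one, with 586 and 767 CPM in Con and 602 and 579 in Step2 against 415 and 528 and 390 and 422 on the opposite strand. In these 2 side bins, upstream ends were thus mostly opposite to the gene and downstream ends mostly along it, in both groups.

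The fall at starts was also seen without the bases named above. The ratio of ends within 200 bases of starts to ends 4 to 5 kb away stood at 0.579 and 0.931 in Con against 0.394 and 0.455 in Step2. Leaving out ends preceded by CCT gave 0.572 and 0.926 against 0.391 and 0.451, and leaving out ends preceded by T gave 0.727 and 1.23 against 0.466 and 0.557. The share preceded by T within 200 bases of starts, 29.9% and 30.5% in Con and 31.6% and 30.2% in Step2, overlapped between the groups.

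No single start was called lower in the fits used throughout, in either counting. Other fits over all 6 libraries did call starts lower. With a smooth over GC content removed there were 11 with all reads and 13 with 1 read per position. With the replicate number as a block there were 142 with all reads, beside 5 called higher. Median-of-ratios scaling gave mostly the other direction. It called 22 starts higher and 1 lower with all reads, and 14 higher and 0 lower with 1 read per position. Of 917 start regions, from 1 kb before to 1 kb after a start, 1 was called with all reads (0.109%), and of 478 with 1 read per position 3 (0.628%); these are the piled gene models Gm10801, Gm10800 and Gm21738, all higher. A start region with few reads passes the minimum count mostly through Con, so the direction of the tested starts is no result. The smallest p among lower starts with all reads were those of Ciart, a circadian repressor, with 50 and 108 reads in Con and 5 and 12 in Step2 (−2.55, limma adjusted p = 0.174), and Arid4a, a chromatin factor, with 65 and 89 against 15 and 13 (−1.79, adjusted p = 0.174). Kif18b, a mitotic kinesin, held 42 and 75 against 5 and 10. The count of called starts moved with the libraries used: dropping Con replicate 1 gave 162 with all reads and 86 with 1 read per position, 160 and 84 of them lower. Dropping Con replicate 2 gave 13 with all reads, and dropping a Step2 library gave 51 or 59 with 1 read per position.

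**Figure D4:**
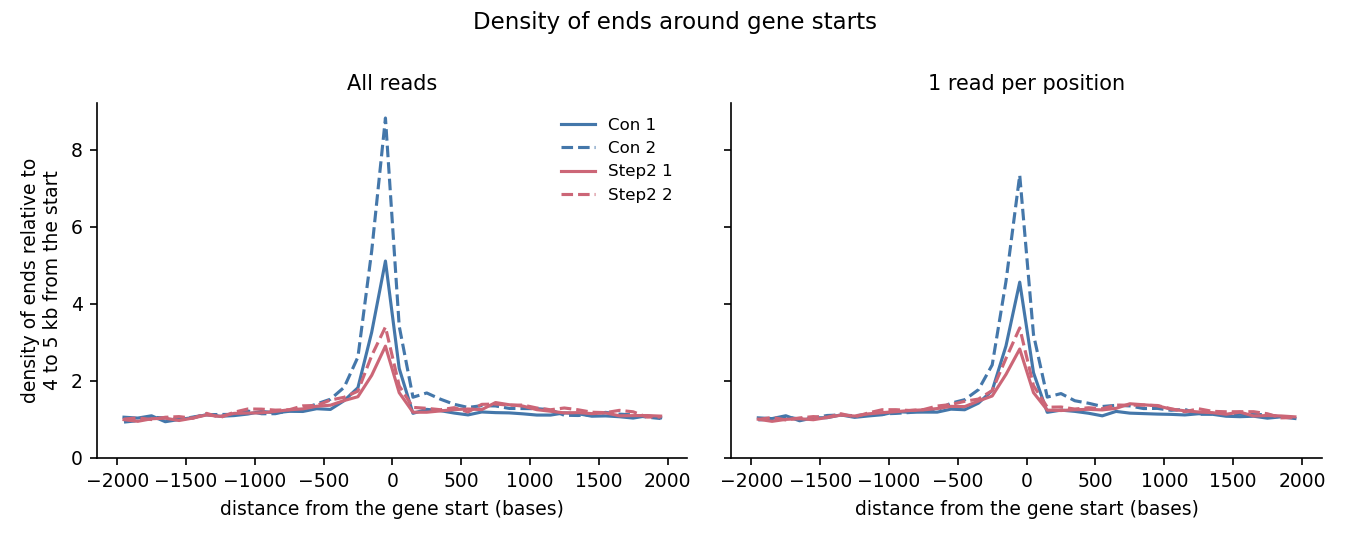
Density of ends in bins of 100 bases by distance from protein-coding gene starts, relative to the density 4 to 5 kb away, for each Con (blue) and Step2 (red) library, with all reads on the left and 1 read per position on the right. With all reads the Con lines peak just before the start at 5.11 and 8.82 and the Step2 lines at 2.90 and 3.40.

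Few larger stretches of the genome were called, and some of the largest changes among windows of 100 kb with all reads sat at single positions. In the window of chromosome 2 from 90300001 the fullest position held 98.7% of reads (log2 ratio 7.71). In that of chromosome 13 from 97100001 it held 67.1% (2.52), and in that from 44800001 50.9% (−1.61). Of 25381 windows of 100 kb 23 were called with all reads (0.0906%), 11 higher and 12 lower, and of 25334 with 1 read per position 5 were called (0.0197%), with 3 shared. The first of the shared windows, chromosome 7 from 19700001 to 19800000, holds Tomm40, Nectin2, Bcam and Cblc; it had 180 and 202 reads in Con and 66 and 52 in Step2 (−1.08, limma adjusted p = 0.00874) and 117 and 128 against 56 and 42 with 1 read per position (−0.83, adjusted p = 0.0376). The second holds Meg3 and Rtl1 on chromosome 12 (−0.87 with 1 read per position, adjusted p = 0.0133). The third, chromosome 16 from 9400001 to 9500000, holds no protein-coding gene and rose from 88 and 63 reads to 93 and 89 in the smaller Step2 libraries (0.90 with all reads, adjusted p = 0.0347; 0.79 with 1 read per position). Dropping Con replicate 1 gave 153 windows with all reads and 8 with 1 read per position, and dropping Con replicate 2 gave 10 and 0. Dropping Step1 replicate 1 gave 15 with all reads, and dropping a Step2 library gave 7 or 3 with all reads and 0 or 1 with 1 read per position.

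Among windows of 1 Mb 9 of 2577 were called with all reads (0.349%), and 20 with 1 read per position (0.776%), 12 higher and 8 lower, with 2 shared. The window of chromosome 7 from 19000001 to 20000000 fell from 794 and 790 reads to 452 and 440 with 1 read per position (−0.34 ± 0.07, limma adjusted p = 0.000471). Of the other lower windows 1 holds part of Robo2, an axon guidance receptor (−0.26), 1 part of Cntn5 (−0.25) and 1 part of Adgrb3 (−0.24), and the rest are gene-rich. The higher windows changed by at most 0.26, as in the window of chromosome 13 with Jarid2 and Dtnbp1, which stood at −0.07 with all reads. Dropping Con replicate 1 gave 47 and 39 windows in the 2 countings, and dropping Con replicate 2 gave 4 and 0. Dropping a Step1 or Step2 library gave 11 or 12 with 1 read per position, and with all reads 22 and 18 for the Step1 libraries and 14 for Step2 replicate 2.

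Chromosome X held a smaller share of ends in Step2. It took 6.01% and 6.09% of ends in Con and 5.76% and 5.81% in Step2 with all reads, a relative change of −4.41%, and it makes up 6.49% of the genome counted. Counted once per position, the shares were 5.96% and 6.01% against 5.66% and 5.74% (−4.79%). Each of the 19 autosomes changed by between −1.16% and 1.66% with all reads. The exact permutation p for the X share was 0.33, the smallest this design allows.

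The lower share was spread along the chromosome. Of 165 windows of 1 Mb on X 131 were lower with all reads (79.4%, median −0.06) and 138 with 1 read per position (83.6%, median −0.06), while on single autosomes 40.6% to 58.2% of windows were lower with all reads. None of the X windows was called. When the X windows were split into 5 groups of equal size by GC content, or by how much of them lies in protein-coding genes, every group was lower, with log2 ratios from −0.09 to −0.05 in both countings.

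Genes on X showed the same order. Of 487 tested protein-coding genes on X 314 were lower with all reads (64.5%, median −0.10) and of 459 with 1 read per position 322 (70.2%, median −0.12), with Dmd called in the second. On chromosomes 1 to 19 the values were 53.7% and 55.5%. Under median-of-ratios scaling 59.1% of X genes were lower with all reads and 59.0% with 1 read per position. Reads on chromosome Y were 83.0 and 79.2 per 1000000 in Con and 88.4 and 63.5 in Step2, which overlap. Whether the libraries differ in the sex of the mice is not given by the labels, and its part in the X share was not tested.

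**Figure D5:**
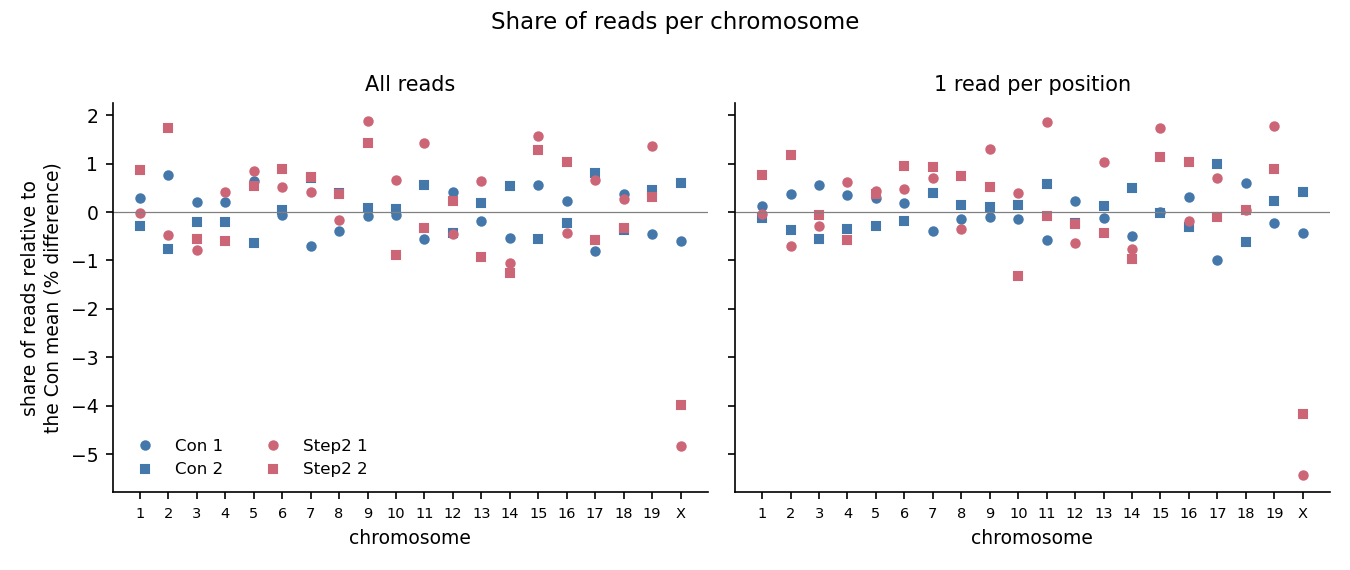
Share of reads on each chromosome in each Con (blue) and Step2 (red) library, as the percent difference from the mean of the Con libraries, with all reads on the left and 1 read per position on the right. On chromosome X both Step2 points lie far below the Con points, with mean differences of −4.41% and −4.79%, and below the points of every autosome.

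The other lists of neuronal functions and of cell types are given by their counts, to be read beside the 54.0% and 56.0% of all tested genes that were lower in the 2 countings. Of Mediator genes and cyclin-dependent kinases 11 of 18 were lower with all reads and 12 of 18 with 1 read per position, with Cdk8 called higher in the first; Ccnt1, a cyclin of transcription elongation, held 49 and 46 reads against 29 and 17 and did not pass the test. Of genes of cohesin and chromatin architecture 20 of 36 and 24 of 36 were lower, with Jarid2 called. Ezh2, the Polycomb methyltransferase, held 77 and 112 reads in Con and 34 and 57 in Step2 (−0.46, limma adjusted p = 0.691), and Stag2, a cohesin subunit, 139 and 165 against 106 and 84 (−0.07). Of cytoskeletal and axonal transport genes 15 of 21 and 14 of 19 were lower, among them Dnm1, the synaptic dynamin, with 61 and 70 reads against 28 and 25 (−0.68, adjusted p = 0.610).

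Activity and damage programs were not called in either direction. Of early response genes 6 of 11 tested were lower with all reads and 6 of 10 with 1 read per position. Fosb, an activity-induced transcription factor gene, held 21 and 20 reads in Con and 5 and 7 in Step2 (−1.10, limma adjusted p = 0.688). Of break repair genes 16 of 31 and 22 of 31 were lower, with Atr, a damage checkpoint kinase, at 104 and 70 reads against 57 and 65 (0.12). Of genes of topoisomerases and end processing 12 of 19 and 12 of 17 were lower, with Top2b, the topoisomerase of neuronal gene induction, at 82 and 85 reads against 45 and 41 (−0.34, adjusted p = 0.766).

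Of p53 and cell death genes 12 of 23 and 10 of 22 were lower, and Casp8, an initiator caspase gene, held 55 and 41 reads against 52 and 49 (0.70, limma adjusted p = 0.502). Of NF-kB and cytokine genes 9 of 17 and 9 of 16 were lower, and of interferon and antigen presentation genes 6 of 16 and 3 of 13. None of these members was called, and many immune genes held too few reads to test.

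Of markers of cell types, 13 of 17 excitatory neuron genes and 6 of 15 interneuron genes were lower with all reads, and 12 of 16 and 7 of 14 with 1 read per position. Sox6, an interneuron transcription factor and long gene, held 600 and 488 reads in Con and 424 and 417 in Step2, higher relative to library size (0.25, limma adjusted p = 0.473). Of astrocyte genes 5 of 14 and 7 of 13 were lower, of oligodendrocyte genes 8 of 16 and 6 of 15, of microglial genes 6 of 12 in both, and of vascular genes 11 of 18 and 10 of 18.

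Genes with short, highly expressed transcripts mostly fell under the minimum count. Of 50 ribosomal protein genes 14 were tested with all reads, 11 of them lower (median −0.47), and 5 with 1 read per position, 2 of them lower (median 0.33). Of all tested genes up to 10 kb 64.9% were lower with all reads (median −0.30). A short gene that passed the minimum count only through its Con libraries had to be lower, so the direction of these few is no result. Rpl4 held 367 and 694 reads in Con and 202 and 273 in Step2 (−0.49, limma adjusted p = 0.507). Of replication-dependent histone genes 2 were tested, with Hist1h1d called lower and the other higher. Of oxidative phosphorylation genes 11 of 18 and 8 of 13 were lower, with Atp5b, an ATP synthase subunit, at 24 and 29 reads against 5 and 5 (−1.68, adjusted p = 0.512).

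Ends facing each other were scarcer in Step2. The share of distinct end positions with an end on the opposite strand within 10 bases was 1.14% and 1.57% in Con and 0.689% and 0.784% in Step2, and after thinning to equal depth 0.832% and 1.21% against 0.673% and 0.784%. Within 2 bases the thinned shares were 0.260% and 0.417% in Con and 0.191% and 0.231% in Step2, and within 50 bases 3.11% and 3.49% against 2.86% and 2.98%. The groups did not overlap at any of the 3 distances, with an exact permutation p of 0.33.

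Repeated use of a position did not separate the groups at equal depth. The share of reads at positions holding at least 2 reads was 31.4% and 41.3% in Con and 26.8% and 29.2% in Step2, but 24.6% and 33.9% against 26.3% and 29.2% after thinning, which overlap (exact permutation p = 1). The GC content of the 100 bases around ends overlapped as well, at 40.2% and 40.7% in Con and 40.6% and 40.5% in Step2. Exons took 3.92% and 4.28% of ends in Con and 3.86% and 3.84% in Step2, against 3.74% of the genome, and piled windows 4.09% and 3.71% against 4.41% and 4.2%.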

How the data were processed

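DNA ends were measured by BLISS in 6 libraries of sorted mouse forebrain neurons, 2 each titled Con, Step1 and Step2; Step2 was compared with Con. Per the submitters' processing notes, Bowtie2, SAMtools, bedtools and the build mm10 were used, with versions not given in the sources used here. The deposited files are labelled as deduplicated and hold 1 line per aligned read with a score, the mapping quality score set by the authors' aligner, from 11 to 42.

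The 5′ ends of reads were counted in GENCODE genes, regions within 1 kb of gene starts, and windows of 10 kb, 100 kb and 1 Mb. Those reaching 10 reads in 2 or more libraries entered a two-sided limma 3.58.1 voom fit over all 6 libraries (R 4.3.3) and were called at an adjusted p under 0.05. The deposited files hold reads, so all counts were made here. Library size left out 26 windows of 10 kb with over 20 times the median. Shares were compared by an exact permutation test. Python 3.11.15, numpy 2.4.6, pandas 2.3.3, SciPy 1.17.1 and matplotlib 3.10.9 were used for the rest. The procedure was tested on simulated counts.

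Members, the 25 gene lists and the naming rule were chosen with earlier results of these data known. Per counting and direction the rule takes the 10 protein-coding genes, 10 windows of 100 kb, 10 windows of 10 kb, 5 noncoding genes, 5 starts and 5 windows of 1 Mb with the largest log2 fold change among those called, with groups apart and 20 or more reads on average, or the 3 smallest p where none was called. Of each list it adds any called member and the 4 densest in reads per kb, and it always includes Camk2a and Cdk5r1. Named features were chosen among these where the text had room. Some genes this rule takes are not reported here. Alternatives were other scalings, filters, limma-trend, 2-group fits, a replicate block, mapping quality of at least 30, thinning, each run, a GC smooth, other sizes and each library left out. Reads of chromosome Y and of mitochondria are given as shares and entered no fit.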

Additional observations from a re-analysis of the deposited data

How the results depend on the processing

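The calls rested on few libraries, and their number moved with most choices. The direction of Meg3 and of the long genes taken by the naming rule did not turn in any setting compared. For long genes named through 1 read per position alone, the settings compared were those of that counting and the main fit with all reads. Of the values of single named features under the alternatives compared for each, 942 kept direction and side of the threshold, 442 kept the direction and lost the call, and 39 turned. The 2 libraries a group and the smaller Step2 depth limit what a single short gene or gene start can show. Runs 1 and 2, piled windows left out, and the scalings, GC smooth and left-out libraries on 1 read per position were chosen after seeing the data. The causes of the changes below were not tested.

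The main count of protein-coding genes with all reads was 13. It was 21 with all reads as library size, 5 with no count filter, 8 with at least 20 reads in 2 libraries, 34 with limma-trend, 7 with Con and Step2 only, 3 in run 1, 31 with piled windows left out, 22 with the GC smooth removed, 27 with gene starts left out of gene bodies, and 1 to 106 with a library left out. With 1 read per position it was 16, 6 with median-of-ratios scaling, and 0 to 26 with a library left out. The count of noncoding genes, 13, became 0 in run 1, 7 in run 2, 6 outside protein-coding genes and 9 to 37 with a library left out; with 1 read per position it went from 12 to 1 to 12.

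The count of gene starts, 1, became 3 with 1 read per position, 23 with median-of-ratios scaling, 36 with at least 20 reads, 4 with limma-trend, 2 at equal depth, 5 in run 1, 42 in run 2, 0 with piled windows left out, 11 with the GC smooth removed, 0 with 500 bases around starts, and 1 to 162 with a library left out. With 1 read per position it was 14 with median-of-ratios scaling, 13 with the GC smooth removed and 2 to 86 with a library left out. The direction of the called starts changed with these choices. Median-of-ratios scaling gave 22 higher and 1 lower with all reads, and 14 higher and 0 lower with 1 read per position. Limma-trend gave 3 higher and 1 lower. At least 20 reads gave 35 lower and 1 higher, and run 2 gave 41 lower and 1 higher. Those called with the GC smooth removed were all lower, in both countings.

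The count of 100-kb windows, 23, became 5 with 1 read per position, 14 with mapping quality of at least 30, 35 with limma-trend, 15 with Con and Step2 only, 8 and 9 in runs 1 and 2, 15 of windows of 50 kb and 3 to 153 with a library left out; with 1 read per position it was 9 with the GC smooth removed and 0 to 8 with a library left out. The count of 1-Mb windows, 9, became 20 with 1 read per position, 5 with mapping quality of at least 30, 17 with limma-trend, 14 at equal depth, 2 and 16 in runs 1 and 2, 3 with the GC smooth removed, 33 of windows of 500 kb and 4 to 47 with a library left out; with 1 read per position it was 31 with the GC smooth removed and 0 to 39 with a library left out. The count of 10-kb windows, 8, became 2 with 1 read per position, 2 with at least 20 reads, 52 with limma-trend, 1 with Con and Step2 only, 14 at equal depth, 2 and 13 in runs 1 and 2, 5 of windows of 5 kb and 2 to 109 with a library left out; with 1 read per position it was 0 to 10 with a library left out.

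Whether the replicate numbers pair the libraries is not given by the labels. Over protein-coding genes the difference between replicates 1 and 2 in Con correlated with that in Step2 at 0.0052 with all reads and 0.012 with 1 read per position. Over windows of 1 Mb with all reads it was 0.014, with 0.074 between Con and Step1 and 0.066 between Step1 and Step2. Low counts per feature can hide a shared difference, so these correlations cannot exclude a pairing. A replicate block gave 43 protein-coding genes, 147 gene starts, 38 windows of 100 kb and 23 of 10 kb, and with the block 14 noncoding genes and 11 windows of 1 Mb.

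The difference in GC content around ends, 0.103 percentage points, turned to −0.138 without Con replicate 1 and ran up to 0.345 in the other fits with a library left out. Members of the abundant noncoding list that were lower numbered 8 to 14 with a library left out.

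The values that turned were these. Cdk8 stood at −0.18 with 1 read per position, −0.13 with that and median-of-ratios scaling, −0.19 with that and the GC smooth removed, −0.75 with mapping quality of at least 30 and −0.13 with piled windows left out. Jarid2 stood at 0.038 with 1 read per position and median-of-ratios scaling. Cma2 stood at 0.34 with 1 read per position, 0.39 with that scaling too and 0.32 with the GC smooth removed too. Gm42418 stood at −0.25 and CT010467.1 at −0.29 with 1 read per position, with and without that scaling. With all reads Gm21738 stood at −0.10, its start at −0.062 and Gm26870 at −0.090. With the GC smooth removed the start of Gm10801 stood at −0.93, and with 1 read per position too at −0.90, Gm10800 at −0.79 and Gm21738 at −1.03.

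Of windows with 1 read per position, that of 100 kb from 5800001 on chromosome 3 (w3_5800001) stood at −0.11, and at −0.093 with the GC smooth removed; those at Cdk8 at −0.15 and −0.17 (100 kb, w5_146200001) and −0.19 and −0.21 (10 kb, w5_146260001); those at Jarid2 at 0.020 and 0.026 (100 kb, w13_44800001) and 0.21 and 0.19 (10 kb, w13_44860001); and that of 1 Mb from 90000001 on chromosome 2 (w2_90000001) at −0.031 and −0.041, and at −0.039 with piled windows left out. With mapping quality of at least 30 the Cdk8 windows stood at −0.62 (100 kb), −1.33 (10 kb) and −0.027 (1 Mb, w5_146000001), the first at −0.11 with piled windows left out and the last at −0.011 with the GC smooth removed from 1 read per position. The 1-Mb window with Jarid2 (w13_44000001) stood at −0.070 with all reads.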
